A study of Mus musculus with 20 samples.

Results

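The data concern 10 genes that are widely used as markers of mural cells, the pericytes and vascular smooth muscle cells that surround blood vessels: Mcam, Kcnj8, Abcc9, Rgs5, Pdgfrb, Cspg4, Acta2, Tagln, Myh11 and Des. They were taken by name from the 55866 genes of the count table, by a list of names that was drawn up with earlier results of these data known, and all 10 passed the filter on low counts in each comparison. The question was which of them were enriched in ribosome-bound RNA pulled down from endothelial cells and which were not, in both treatment groups.

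Pericytes share a basement membrane with capillary endothelium, and smooth muscle cells form contractile layers around larger vessels. Endothelial cells secrete PDGF-B, which recruits mural cells through the receptor PDGFRβ. None of the usual mural markers is fully restricted to mural cells, and Mcam (CD146) in particular is also a surface protein of endothelium.

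The libraries came from Py8119 tumors, a mammary carcinoma line syngeneic to C57BL/6J, grown in the fifth mammary fat pad of female RiboTagEC mice. These mice are homozygous for the floxed Rpl22HA allele (Rpl22HA/HA) and carry Cdh5CreERT2, so that tamoxifen (75 mg/kg for 5 days from 3 weeks of age) puts an HA tag on the ribosomes of cells in which the Cdh5 promoter drives Cre. Tumors were implanted at 8 weeks, and mice received 6-3-A6, an antibody that blocks Notch4, at 25 mg/kg intravenously 2 times a week or control mouse IgG until day 10. From each of 5 control IgG and 5 6-3-A6 tumors, 1 library was made from the whole lysate (input) and 1 from the RNA recovered with an anti-HA antibody (IP), giving 4 groups of 5. All mice, in both arms, carried the tagged allele and the Cre, so the IP comparison has no Cre-negative background, and RNA carried along without a tagged ribosome was not measured separately.

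Library depth ranged from 11881214 to 26728205 gene-assigned counts (median 16942643). Levels are given as CPM, counts scaled to the library total and by TMM factors, and fold changes as log2 values with their standard errors (SE). A gene is called where the Benjamini-Hochberg adjusted p of edgeR's quasi-likelihood test over all tested genes is under 0.05. Endothelial RNA was higher in IP than in input. Pecam1, an adhesion protein of endothelium, was at 58.3 ± 10.7 CPM in control IgG input and 995 ± 536 CPM in control IgG IP (SD, n = 5 each). In the 6-3-A6 groups it was at 52.6 ± 12.8 and 944 ± 455 CPM. All 17 endothelial markers on a list made for this comparison were called higher in IP over both groups, where 2771 of 14095 genes (19.7%) were. The list was made with earlier results of these data known. Log2 fold changes ran from 3.16 (Eng) to 5.41 (Sox18), with a median of 4.36. That median was the value of Cdh5 (SE 0.30), the gene whose promoter drives the Cre. Of the IP libraries, control IgG replicate 4 and 6-3-A6 replicate 2 had the lowest mean over that list, 5.82 and 5.56 log2 CPM, where the other 8 were between 6.62 and 8.07.

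Of the 10 mural markers, 3 were called higher in the IP of control IgG tumors (Mcam, Kcnj8 and Abcc9), where 1200 of 14488 genes (8.28%) were called higher, and 1 was called lower (Des), where 449 genes (3.1%) were called lower. In 6-3-A6 tumors the same 3 genes were called higher, against 1861 genes (12.8%), and 0 markers were called lower, against 1950 genes (13.5%). Over both groups together 3 were called higher (19.7% of 14095 genes) and 1 lower (21.1%). The median log2 fold change of the 10 was 0.07 in control IgG and -0.0040 in 6-3-A6 tumors, beside medians of -0.05 and -0.07 over all tested genes. With the tumor as a replicate block, 3249 instead of 1649 genes were called in either direction in control IgG tumors.

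**Figure D1:**
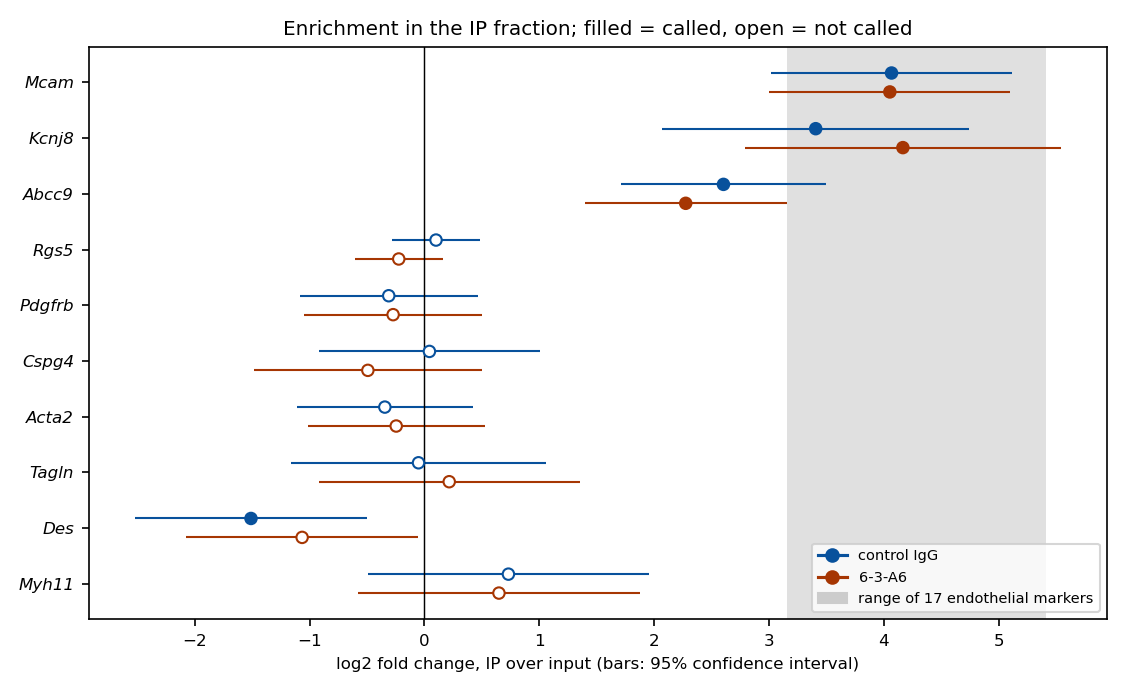
Log2 fold change of IP over input for each mural marker in control IgG (blue) and 6-3-A6 (brown) tumors, with 95% confidence intervals. Filled points are called and open points are not, and the gray band spans the 17 endothelial markers over both groups. Mcam and Kcnj8 lie inside the band, Abcc9 lies below it but above 0, and the other 7 genes lie between -1.51 and 0.73.

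The promoters of the enriched genes and that of Acta2, an unenriched contractile gene, are shown to give the sequence context of both kinds of marker. Each is the 250 bases upstream of the annotated start, 5′ to 3′ on the gene's strand, from RefSeq on build GRCm38.p6. Promoters were examined for 7 of the 10 genes. In the first 3, capitals mark GGAA on either strand (TTCC on the other), the core motif of ETS transcription factors, a family with many endothelial members. In Acta2, capitals mark CArG-like boxes, the element bound by serum response factor, with at most 1 C or G in the core.
Mcam, chr9:44134408-44134657, plus strand: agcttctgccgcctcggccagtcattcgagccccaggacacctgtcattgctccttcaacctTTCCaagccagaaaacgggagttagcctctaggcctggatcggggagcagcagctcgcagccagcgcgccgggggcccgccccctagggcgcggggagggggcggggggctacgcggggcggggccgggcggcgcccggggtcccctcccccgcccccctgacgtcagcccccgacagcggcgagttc
Kcnj8, chr6:142571615-142571864, minus strand: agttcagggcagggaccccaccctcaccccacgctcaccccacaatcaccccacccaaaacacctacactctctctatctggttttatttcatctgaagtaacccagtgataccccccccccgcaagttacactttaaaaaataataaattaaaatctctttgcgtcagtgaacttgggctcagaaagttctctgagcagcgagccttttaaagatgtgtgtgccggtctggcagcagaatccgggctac
Abcc9, chr6:142702275-142702524, minus strand: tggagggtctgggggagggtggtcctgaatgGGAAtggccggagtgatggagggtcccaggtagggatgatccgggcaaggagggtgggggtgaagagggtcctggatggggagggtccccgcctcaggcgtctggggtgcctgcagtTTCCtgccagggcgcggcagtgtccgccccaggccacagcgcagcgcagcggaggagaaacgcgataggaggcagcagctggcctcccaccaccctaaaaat
Acta2, chr19:34255374-34255623, minus strand: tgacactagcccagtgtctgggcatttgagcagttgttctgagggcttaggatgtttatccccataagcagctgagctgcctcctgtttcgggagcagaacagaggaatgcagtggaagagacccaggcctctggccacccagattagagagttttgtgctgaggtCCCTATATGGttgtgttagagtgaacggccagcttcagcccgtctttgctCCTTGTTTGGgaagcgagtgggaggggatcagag

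GGAA occurred 1 time in the Mcam window, 0 times in that of Kcnj8 and 2 times in that of Abcc9. The windows of Acta2, Rgs5 and Des held 3 each and that of Cspg4 held 1. Across 32851 promoters of this length 93.45% held it, with a median of 3 matches. Acta2 held 2 CArG-like boxes, which 8.593% of promoters held, and 0 strict CArG boxes, which 1.467% held. The windows of Mcam, Kcnj8, Abcc9, Rgs5, Cspg4 and Des held neither form of the box. No entry was matched for Tagln or Myh11. The promoter of Pdgfrb, an unenriched marker, was left out and was not examined for either motif.

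Mcam encodes an adhesion molecule of the immunoglobulin superfamily (chromosome 9, 44045766 to 44054024, plus strand, GRCm39). In control IgG tumors 1 to 5 it was at 56.4, 59.5, 32.6, 30.5 and 34.9 CPM in input and at 1484, 849, 679, 180.0 and 393 CPM in IP. In 6-3-A6 tumors it was at 36.9, 27.9, 25.7, 27.3 and 42.5 CPM in input and at 547, 115, 471, 750.2 and 777 CPM in IP. Every IP library lay above every input library, and the lowest IP values were those of the same pair of libraries that were lowest for the endothelial list. The log2 fold change was 4.07 in control IgG tumors (SE 0.50, adjusted p = 6.47e-06), or 16.8-fold with a 95% interval of 8.10 to 34.6. It was 4.05 in 6-3-A6 tumors (SE 0.50, adjusted p = 5.24e-06), or 16.6-fold with an interval of 8.02 to 34.3.

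Kcnj8 and Abcc9 encode the partners of one potassium channel. Kcnj8 is the pore subunit Kir6.1, and Abcc9 is the sulfonylurea receptor SUR2 that regulates it by nucleotide binding. Both are used as markers of pericytes, in the brain above all. The genes are neighbors on the minus strand of chromosome 6 (Kcnj8 at 142510563 to 142517340 and Abcc9 at 142533588 to 142648041, GRCm39), 16247 bases apart with 0 listed genes between them, and 10.4% of the Abcc9 span is shared with 5330439B14Rik.

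Kcnj8 was at 4.01, 5.50, 6.65, 4.07 and 2.56 CPM in control IgG input and at 47.3, 40.2, 123, 16.0 and 13.8 CPM in the IP of the same tumors. The 6-3-A6 tumors had 5.04, 3.27, 7.03, 1.99 and 2.57 CPM in input and 112, 23.3, 138, 77.5 and 12.3 CPM in IP. The fractions did not overlap in either group, and the IP libraries spread over about 1 order of magnitude. IP over input was a log2 fold change of 3.41 (SE 0.64, adjusted p = 0.000911) in control IgG and 4.17 (SE 0.66, adjusted p = 0.000101) in 6-3-A6 tumors, which are 10.6-fold (4.21 to 26.7) and 17.9-fold (6.92 to 46.5). Without the IP library of control IgG tumor 3, the highest of its group, the control IgG value was 6.48-fold and was still called (adjusted p = 0.00389).

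Abcc9 was at 19.97, 24.0, 21.6, 15.2 and 15.8 CPM in control IgG input and at 117, 132, 222, 50.2 and 66.2 CPM in IP. Values in 6-3-A6 tumors were 24.6, 19.4, 26.2, 31.9 and 10.8 CPM in input and 166, 36.0, 180.3, 109.6 and 54.8 CPM in IP. The fractions again did not overlap, though in 6-3-A6 tumors the gap was small, between 31.9 and 36.0 CPM. The log2 fold change was 2.60 (SE 0.43, adjusted p = 0.000215) in control IgG and 2.27 (SE 0.42, adjusted p = 0.000537) in 6-3-A6 tumors, which are 6.08-fold (3.27 to 11.3) and 4.84-fold (2.63 to 8.91).

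These 3 genes were the only members whose 5 IP libraries all lay above the 5 input libraries, in each treatment group. This held for 8.77% of tested genes in control IgG and for 8.55% in 6-3-A6 tumors. No member had all IP libraries below all input libraries, which held for 4.29% and 6.37% of genes.

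**Figure D2:**
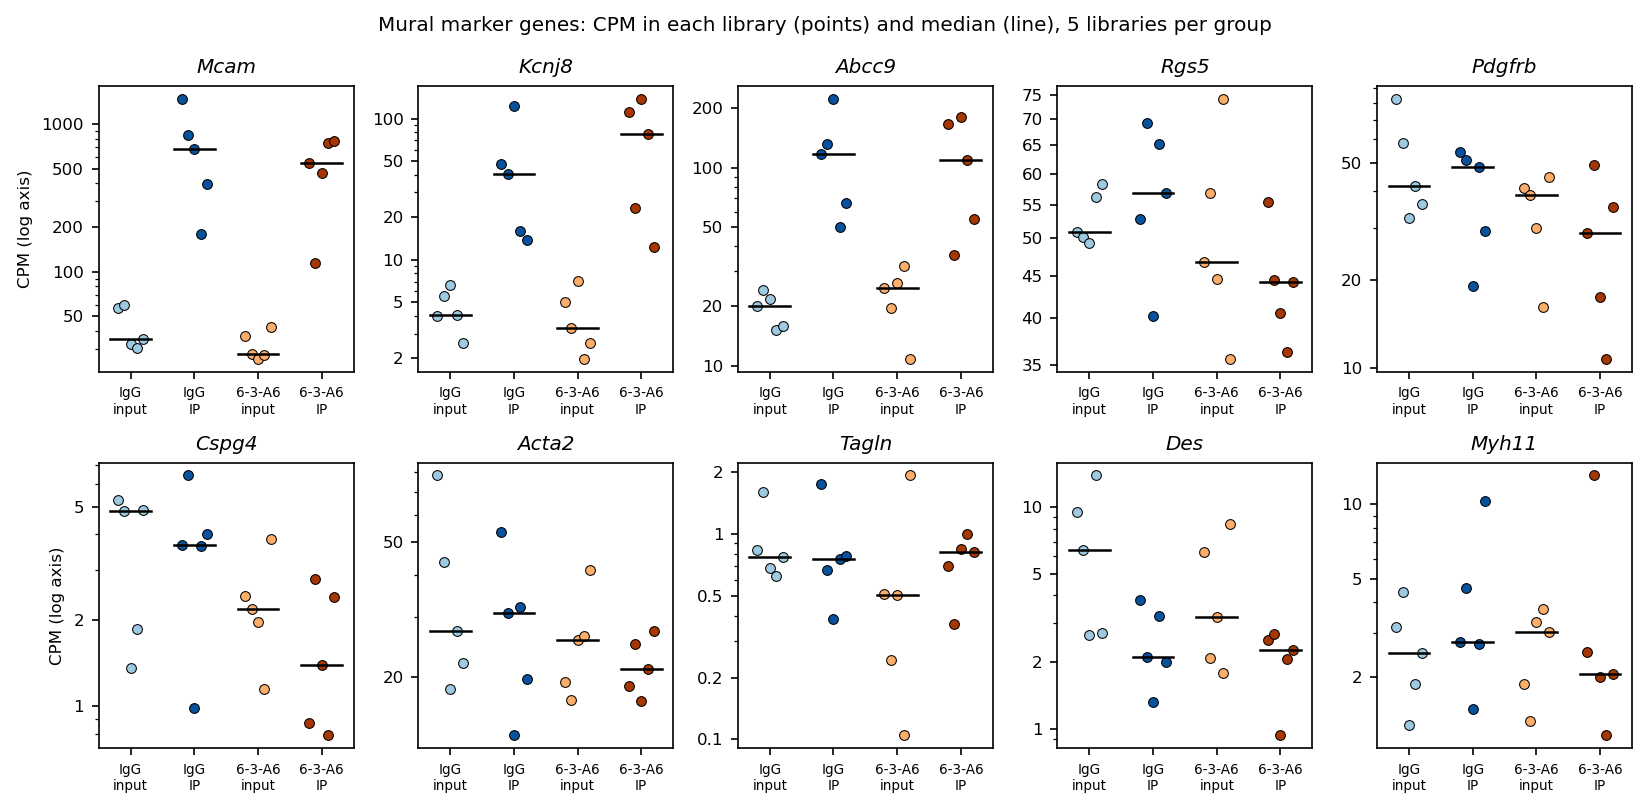
CPM of each mural marker in every library on a log axis, by treatment and fraction, with the median of 5 libraries as a line. The IP points of Mcam, Kcnj8 and Abcc9 lie above the input points in both groups, whereas the fractions overlap for the other 7 genes.

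Rgs5, Pdgfrb and Cspg4 are classical pericyte markers. Rgs5 (chromosome 1) encodes a GTPase-activating protein that dampens G protein signaling, Pdgfrb (chromosome 18) the PDGF receptor β and Cspg4 (chromosome 9) the proteoglycan NG2. None was called in either group. Because these are bulk fractions, fewer cells of a type and less RNA per cell cannot be told apart.

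Rgs5 was at 50.9, 50.3, 49.3, 56.2 and 58.3 CPM in control IgG input and at 52.8, 69.2, 40.1, 65.3 and 56.8 CPM in IP. With 6-3-A6 it was at 46.8, 56.8, 44.6, 74.1 and 35.6 CPM in input and at 55.4, 44.5, 40.5, 36.3 and 44.2 CPM in IP. The fractions overlapped throughout. Log2 fold changes were 0.10 (SE 0.18, adjusted p = 0.761) in control IgG and -0.22 (SE 0.18, adjusted p = 0.379) in 6-3-A6 tumors. It had the narrowest interval of the 10 genes, -0.34 to 0.21 over both groups.

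Pdgfrb was at 82.4, 58.4, 32.3, 41.6 and 36.2 CPM in control IgG input and at 54.5, 51.2, 19.0, 48.3 and 29.4 CPM in IP. In 6-3-A6 tumors it was at 40.9, 38.8, 29.9, 16.1 and 44.6 CPM in input and at 28.8, 49.1, 17.4, 10.7 and 35.3 CPM in IP. IP was the lower fraction in 8 of 10 tumors, and the exceptions were control IgG tumor 4 and 6-3-A6 tumor 2. The log2 fold change was -0.31 (SE 0.37, adjusted p = 0.629) in control IgG and -0.27 (SE 0.37, adjusted p = 0.610) in 6-3-A6 tumors. With the tumor as a replicate block, the value over both groups was -0.35 and was called (adjusted p = 0.0227), against -0.30 (adjusted p = 0.366) without it.

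Cspg4 was low, at 1.36 to 5.29 CPM in control IgG input, 0.988 to 6.44 in control IgG IP, 1.15 to 3.85 in 6-3-A6 input and 0.790 to 2.80 in 6-3-A6 IP, on 11 to 144 counts per library. The fractions overlapped in both groups. IP differed from input by a log2 fold change of 0.04 (SE 0.46, adjusted p = 0.961) in control IgG and -0.49 (SE 0.48, adjusted p = 0.459) in 6-3-A6 tumors.

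Acta2, Tagln and Myh11 encode parts of the smooth muscle contractile apparatus, namely smooth muscle α-actin, the actin-binding protein transgelin (SM22α) and smooth muscle myosin heavy chain. Acta2 and Tagln are also used as markers of myofibroblasts, whereas Myh11 is considered the most specific of the 3 for smooth muscle. None was called in either group.

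Acta2 was at 78.2, 43.7, 18.4, 27.4 and 22.1 CPM in control IgG input and at 53.5, 30.8, 13.5, 32.1 and 19.7 CPM in IP. The 6-3-A6 inputs were at 19.3, 17.2, 25.8, 26.4 and 41.4 CPM and the IP libraries at 18.9, 25.1, 17.1, 21.2 and 27.4 CPM. IP was lower in 8 of 10 tumors. The log2 fold changes were -0.34 (SE 0.37, adjusted p = 0.584) and -0.25 (SE 0.37, adjusted p = 0.647). Over both groups the value was -0.30 (adjusted p = 0.356), and with the tumor as a replicate block it was -0.25 (adjusted p = 0.0969), neither of which was called.

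Myh11 was at 3.17, 4.40, 1.28, 1.87 and 2.50 CPM in control IgG input and at 2.77, 4.56, 1.48, 2.71 and 10.3 CPM in IP. In 6-3-A6 tumors it was at 1.87, 1.32, 3.32, 3.77 and 3.05 CPM in input and at 2.51, 13.1, 1.99, 1.16 and 2.05 CPM in IP. In each group 1 IP library stood above all others, that of control IgG tumor 5 (262 counts) and that of 6-3-A6 tumor 2 (215 counts). The log2 fold changes were 0.73 (SE 0.59, adjusted p = 0.451) and 0.65 (SE 0.59, adjusted p = 0.429). Without the IP library of 6-3-A6 tumor 2 the value in that group was -0.45, and without that of control IgG tumor 5 the value in control IgG was 0.13.

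Tagln carried 1 to 29 counts per library, or 0.105 to 1.92 CPM, and 58.0% of its span is shared with Pcsk7 and Gm48529, so its counts are uncertain. Its log2 fold changes were -0.05 (SE 0.54, adjusted p = 0.960) and 0.22 (SE 0.55, adjusted p = 0.797). A change of about 2-fold in either direction was not excluded, since the interval in control IgG tumors ran from 0.446-fold to 2.09-fold.

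Des encodes desmin, an intermediate filament protein of pericytes and of smooth, skeletal and cardiac muscle. It was at 9.51, 6.43, 2.64, 13.9 and 2.69 CPM in control IgG input and at 3.79, 2.10, 1.32, 3.21 and 2.00 CPM in IP. In 6-3-A6 tumors it was at 6.29, 2.09, 3.21, 1.78 and 8.42 CPM in input and at 2.51, 2.68, 0.932, 2.05 and 2.26 CPM in IP. IP was lower in 5 of 5 control IgG tumors and in 3 of 5 6-3-A6 tumors, with overlapping fractions in both groups. The log2 fold change was -1.51 (SE 0.49, adjusted p = 0.0474) in control IgG, -1.06 (SE 0.49, adjusted p = 0.107) in 6-3-A6 tumors and -1.29 (SE 0.34, adjusted p = 0.00471) over both groups. The call in control IgG tumors was lost when any of 12 of the 20 libraries was left out, with adjusted p between 0.0521 and 0.161 (control IgG input 1, 2 and 4 and IP 2, 3 and 5, and 6-3-A6 input 1 and 3 and IP 1, 2, 4 and 5), whereas the call over both groups held in each case. Without any 1 of those 6 libraries of 6-3-A6 tumors the control IgG value stayed at -1.51, and only the adjusted p moved past the threshold. With the tumor as a replicate block Des was called in control IgG, at -1.32 (adjusted p = 0.0169).

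Some skeletal muscle genes were also lower in IP. Of 11 skeletal muscle markers, 8 were tested, and over both groups 4 were called lower, where 21.1% of all genes were, and 0 higher, with a median log2 fold change of -0.72. The 4 uncalled genes were between -0.49 and 0.11, with Neb, nebulin, the highest. Acta1, skeletal α-actin, fell by 1.81 on the log2 scale (SE 0.68, adjusted p = 0.0366), and was at 17.2 CPM in the input of control IgG tumor 4, the library with the highest Des, and at 0 to 3.34 CPM in the other control IgG inputs. Ckm, the muscle creatine kinase, was not tested and had at most 46 counts in a library. The summed level of the 9 markers with enough counts was 7.58 to 54.7 CPM in control IgG input, 6.09 to 19.3 in control IgG IP, 13.5 to 29.1 in 6-3-A6 input and 6.91 to 17.4 in 6-3-A6 IP. Their part in the result for Des was not tested.

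**Figure D3:**
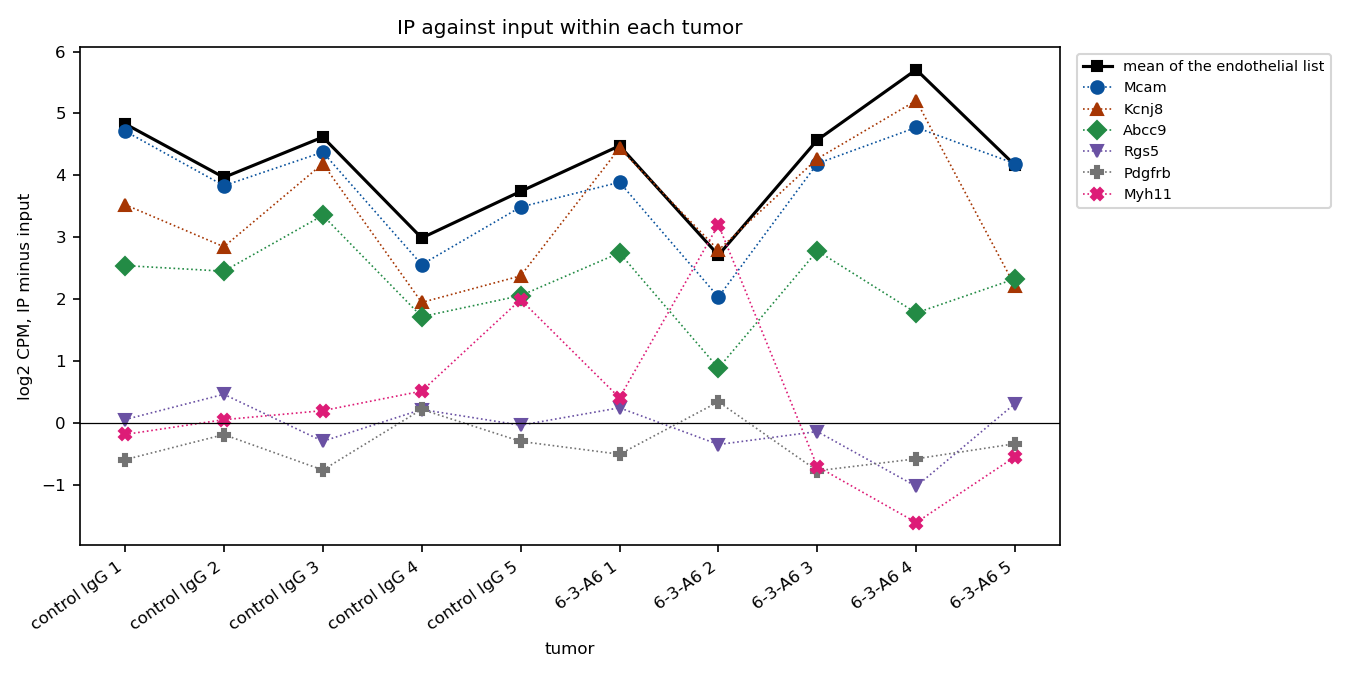
Difference in log2 CPM between the IP and the input of each tumor for 6 mural markers and, in black, for the mean of 17 endothelial markers. Mcam follows the endothelial mean closely, Kcnj8 and Abcc9 lie below it in most tumors, and Rgs5 and Pdgfrb lie between -1.03 and 0.46 in every tumor. Myh11 stands out in control IgG tumor 5 and 6-3-A6 tumor 2.

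Within tumors, the IP over input difference of the endothelial mean was between 2.71 (6-3-A6 tumor 2) and 5.71 (6-3-A6 tumor 4) log2 units. Mcam differed from it by -0.37 ± 0.29 (SD, n = 10 tumors), and in 9 of 10 tumors was below it. Kcnj8 differed by -0.80 ± 0.66 and was below it in 9 of 10 tumors. Abcc9 differed by -1.91 ± 0.77 and was below it in 10 of 10. For the other 7 genes the mean difference was between -3.85 (Myh11) and -5.23 (Des). These values are descriptive and were not tested. The input of 6-3-A6 tumor 4 had the lowest endothelial mean of the inputs, 2.08 log2 CPM, where the others were between 2.84 and 3.41. Over both groups the upper end of the 95% interval was at most 1.53 for those 7 genes (Myh11), under the 3.16 of the least enriched endothelial marker.

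The enrichment was compared between treatments by the interaction of treatment and fraction. No member was called, and 0 of 14488 genes (0%) were called by edgeR or DESeq2, and 125 genes had a p under 0.05 before adjustment. The enrichment in 6-3-A6 minus that in control IgG tumors was -0.01 on the log2 scale for Mcam (95% interval -1.33 to 1.30), 0.76 for Kcnj8 (-0.99 to 2.51) and -0.33 for Abcc9 (-1.52 to 0.86). With 1 library left out these differences ran from -0.25 to 0.44 for Mcam, from 0.39 to 1.47 for Kcnj8, the highest without control IgG IP 3, and from -0.58 to 0.04 for Abcc9. The intervals of Mcam and Kcnj8 reached about 1 log2 unit or more on either side of 0. For Rgs5 the difference was -0.32 (-0.87 to 0.22).

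Other genes of the same cells were taken from lists that share no gene with the 10. Of 13 other pericyte genes, 9 were tested over both groups, 0 were called higher and 2 lower, with a median of -0.34, and 2 of 9 is close to the 21.1% called lower among all genes. Notch3, the Notch receptor of mural cells, was at 3.93 ± 1.13 CPM in control IgG input and 4.10 ± 1.30 CPM in IP (SD, n = 5 each), with a log2 fold change of -0.08 (SE 0.23, adjusted p = 0.788). That value is limited by overlap, since 45.7% of Notch3 is shared with Gm17276. Ndufa4l2, a hypoxia-induced mitochondrial protein of pericytes, had the highest value of this list (0.09, SE 0.32), and Cox4i2, a subunit of cytochrome c oxidase, the lowest (-1.05, SE 0.26, adjusted p = 0.00265). The other gene called lower was Anpep, aminopeptidase N (-0.66, SE 0.17).

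Of 12 other contractile genes, 11 were tested, 3 were called higher and 2 lower, with a median of -0.30, where 19.7% of all genes were called higher and 21.1% lower. Mylk, myosin light chain kinase, rose by 1.92 (SE 0.19, adjusted p = 4.10e-08) and Smtn, smoothelin, by 1.00 (SE 0.16, adjusted p = 4.05e-05). Of the Smtn span, 29.0% is shared with Gm11946 and Gm11947. Flna, the widely expressed actin crosslinker filamin A, was called at 1.23 (SE 0.47, adjusted p = 0.0422), but its median difference within the 10 tumors was 0.23 and its maximum 3.20, in 6-3-A6 tumor 2. The IP library of that tumor was at 3212 CPM, where the group median was 282 CPM, and without it Flna was at 0.42 and not called (adjusted p = 0.218). Its call was also lost without control IgG IP 5 (adjusted p = 0.104) or without any 1 of 7 input libraries (0.0522 to 0.0694). Synpo2 (-0.69, SE 0.27) and Tpm1 (-0.36, SE 0.12) fell. Smtn, Flna, Tpm1 and Anpep, and the PDGF ligands Pdgfa and Pdgfd of the next list, are named as the remaining called genes of their lists and were chosen after their values were seen.

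Of 5 genes for PDGF ligands and the α receptor, 2 were called higher in IP over both groups, where 19.7% of all genes were, and 3 lower, where 21.1% were. Pdgfb was at 17.3 ± 1.94 CPM in control IgG input and 90.1 ± 43.5 CPM in IP, and at 14.9 ± 6.93 and 91.7 ± 32.05 CPM in the 6-3-A6 groups, a log2 fold change over both groups of 2.49 (SE 0.25, adjusted p = 5.86e-08). Pdgfd, a second ligand of PDGFRβ, rose by 1.21 (SE 0.21). Pdgfa (-0.67, SE 0.24), Pdgfc (-0.70, SE 0.16) and the α receptor Pdgfra (-0.64, SE 0.18) were called lower.

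**Figure D4:**
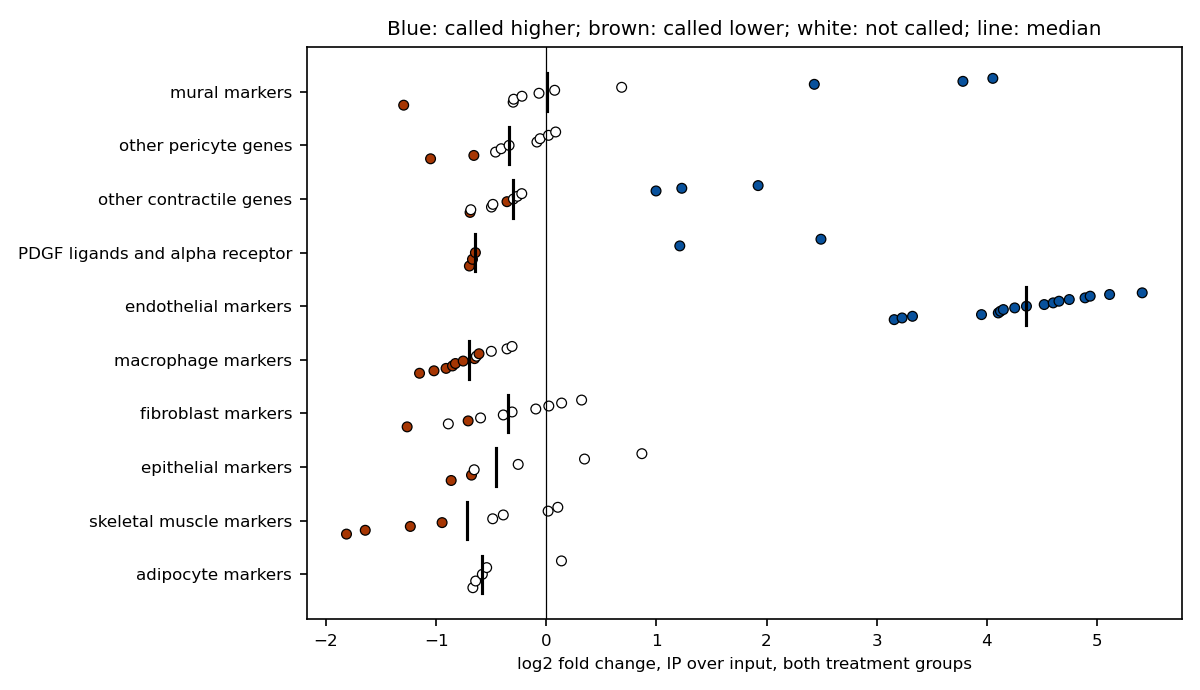
Log2 fold change of IP over input over both treatment groups for every tested gene of each list, with the list median as a line. The 17 endothelial markers lie between 3.16 and 5.41, the mural markers split into 3 genes at 2.43 or more and 7 at 0.68 or less, and the medians of the other lists lie below 0.

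Markers of other cells were mostly at or below input. Of 12 tested macrophage markers 8 were called lower, against 21.1% of all genes, and 0 higher (median -0.70), from Cd68 at -1.15 to Fcgr1 at -0.31. Csf1r was not called (-0.50, SE 0.23, adjusted p = 0.0848). Of 10 fibroblast markers 2 were lower (median -0.35), with Dpt at -1.26, of whose span 73.5% is shared, and Col3a1 at 0.32. Col1a1 was at -0.09 (SE 0.40). Of 6 epithelial markers 2 were lower (median -0.45), from Krt18 at -0.86 to Krt14 at 0.87, and of 5 adipocyte markers 0 were called (median -0.58), from Retn at -0.67 to Plin1 at 0.14. RNA of such non-endothelial genes was present in IP: the macrophage markers summed to 3254 to 8982 CPM over the 10 IP libraries. The endothelial markers summed to 1565 to 7207 CPM in control IgG IP and to 1247 to 6363 CPM in 6-3-A6 IP.

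The genes whose profile was most like each member were found over all 20 libraries, by the root mean square difference of centered log2 CPM. For Mcam they were Dll4, an endothelial Notch ligand (0.305), and Icam2, an endothelial adhesion molecule (0.324). For Kcnj8 they were Trp53i11 (0.478) and Apln, the peptide ligand apelin (0.510). For Abcc9 they were Unc45b, a myosin chaperone (0.322), and Ptprm, a receptor tyrosine phosphatase (0.365). For Pdgfrb they were the fibrillar collagen genes Col5a3 (0.291) and Col5a1 (0.327), and for Cspg4 Spint1 (0.483) and Col6a3 (0.503). For Rgs5 they were Lonrf1 (0.184) and Nnt (0.186), for Acta2 Adra2a (0.289) and Gm49172 (0.305), and for Tagln Bax (0.381) and Crip1 (0.382). For Des they were Cpz (0.476) and Dnph1 (0.493), and for Myh11 Fbxo34 (0.604) and Ppp1r9a (0.622). Among the members, Pdgfrb and Cspg4 were the closest pair (0.501). The 20 libraries share tumors in pairs, and these values are descriptive.

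Whether 6-3-A6 changed the mural markers was compared within each fraction. In input, 0 of the 10 and 0 of 13683 genes (0%) were called by edgeR or DESeq2, and 180 had a p under 0.05 before adjustment. The log2 fold changes of the members in input were between -0.72 (Des, 95% interval -1.89 to 0.45) and 0.21 (Abcc9, -0.35 to 0.78). In the 10 IP libraries, 0 of the 10 and 0 of 13602 genes (0%) were called by either tool, and 292 had a p under 0.05 before adjustment. There Cspg4 was at -1.19 (-2.23 to -0.16), Kcnj8 at 0.58 (-0.89 to 2.05), Pdgfrb at -0.52 (-1.37 to 0.33) and Mcam at -0.44 (-1.62 to 0.74). With 1 library left out the value of Kcnj8 ran from 0.22 to 1.29, the highest without control IgG IP 3.

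The study kept 6 IP libraries after a principal component analysis, control IgG 2, 4 and 5 and 6-3-A6 1, 3 and 4. The paper reports that the treatment groups were poorly resolved before outliers were removed and more clearly separated afterwards. In the 6 kept libraries, 2 of the 10 markers were called, where 646 of 13999 genes (4.61%) were called in either direction. Kcnj8 was higher in 6-3-A6, by 2.20 on the log2 scale (SE 0.38, adjusted p = 0.0188). Its kept values were 40.2, 16.0 and 13.8 CPM in control IgG and 112, 138 and 77.5 CPM in 6-3-A6, which do not overlap. The libraries left out by the study were at 47.3 and 123 CPM in control IgG and 23.3 and 12.3 CPM in 6-3-A6, in the opposite order.

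Cspg4 was lower in 6-3-A6, with a log2 fold change of -2.21 (SE 0.36, adjusted p = 0.0178). Its kept values were 6.44, 3.65 and 4.00 CPM in control IgG and 0.875, 1.40 and 0.790 CPM in 6-3-A6, on 15 to 144 counts. The libraries left out were at 3.67 and 0.988 CPM in control IgG and 2.80 and 2.41 CPM in 6-3-A6. Pdgfrb (-1.20, SE 0.34, adjusted p = 0.0683) and Myh11 (-1.68, SE 0.48, adjusted p = 0.0743) were not called. DESeq2, the tool the study used on these 6 libraries, called both (adjusted p = 0.00991 and 0.00732), which made 4 called members. Among all genes DESeq2 called 1251, where edgeR called 646. The call of Kcnj8 was lost without control IgG IP 4 (adjusted p = 0.0513) or 6-3-A6 IP 3 (0.0602), its value was 2.88 without control IgG IP 2, and the call of Cspg4 was lost without 6-3-A6 IP 3 (0.0574) or 6-3-A6 IP 4 (0.0506).

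Levels of several marker lists differed between the kept groups. In this comparison 2.57% of all genes were called higher and 2.04% lower. The endothelial markers were higher in 6-3-A6 in 17 of 17 cases (median 0.86, 5 called), with a list mean of 5.82 to 7.38 log2 CPM in the kept control IgG libraries and 7.59 to 7.83 in the kept 6-3-A6 libraries. The macrophage markers had a median of -0.93 (6 of 12 called lower) and summed to 6519 to 7656 CPM in kept control IgG and 3254 to 3834 CPM in kept 6-3-A6 libraries. The fibroblast (-0.80, 2 of 10 lower) and epithelial (-0.98, 2 of 6 lower) medians were also negative, as was that of the adipocyte markers (-1.15, 0 of 5 called). Of the other pericyte genes 1 of 9 was called lower and 0 higher (median -0.74), and the 10 with enough counts summed to 154 to 165 CPM in kept control IgG and 56.9 to 91.6 CPM in kept 6-3-A6 libraries. In the libraries left out by the study the endothelial, macrophage and other pericyte lists were not separated in that order. The endothelial mean was 8.07 and 7.93 log2 CPM in control IgG and 5.56 and 7.44 in 6-3-A6, the macrophage sum 5780 and 4538 CPM against 3961 and 8982 CPM, and the sum of the other pericyte genes 95.6 and 120 CPM against 134 and 131 CPM. Kcnj8 minus the endothelial mean was -2.05, -1.81 and -2.82 log2 units in the kept control IgG libraries and -1.02, -0.48 and -1.51 in the kept 6-3-A6 libraries. It was -2.50 and -0.99 in the control IgG and -1.01 and -3.82 in the 6-3-A6 libraries left out, which overlap. The part of these genes in the results for Kcnj8 and Cspg4 was not tested.

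**Figure D5:**
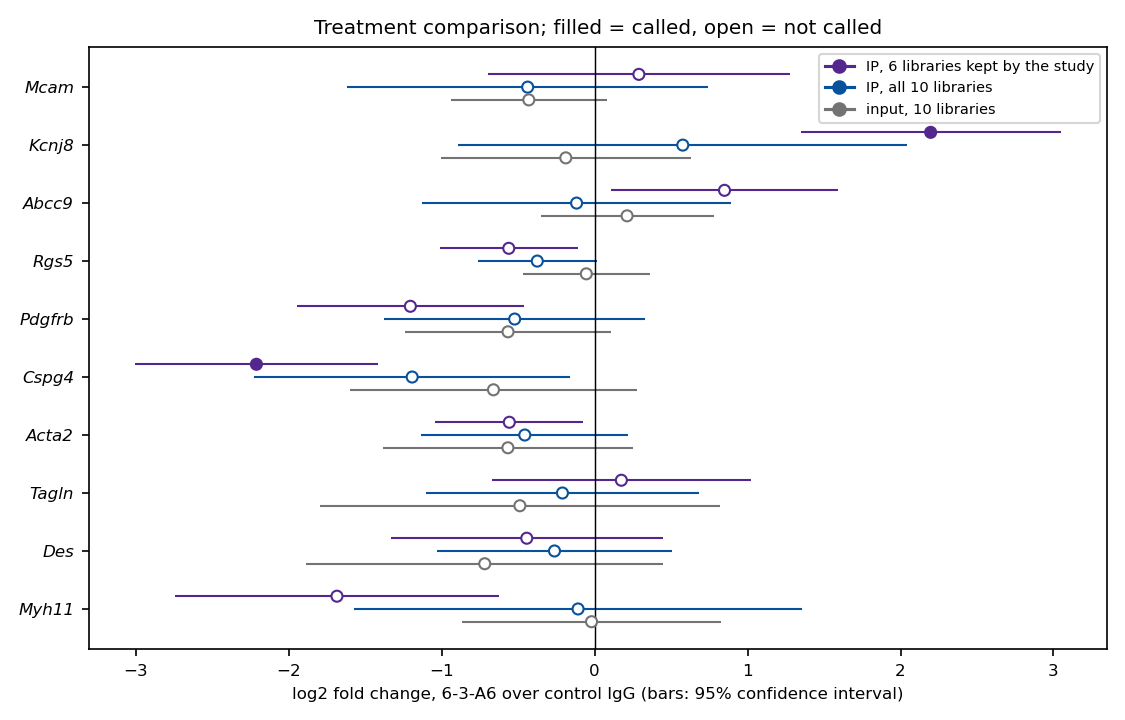
Log2 fold change of 6-3-A6 over control IgG for each mural marker, with 95% confidence intervals, in the study's 6 kept IP libraries (purple), all 10 IP libraries (blue) and the 10 input libraries (gray). Filled points are called: Kcnj8 (2.20) and Cspg4 (-2.21) in the 6 libraries, and none in the other comparisons.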

How the data were processed

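RiboTag RNA-seq of 20 libraries (100-base single reads) was analyzed. The authors aligned reads with STAR (2.7.4a per the labels) and counted them with featureCounts, for which the labels list versions 2.0.1 and 1.5.2. The deposited values are raw counts per gene over whole gene spans with GRCm39 coordinates, although the methods name mm10, and the strand setting is not given in the sources used here. A second deposited table holds, for 6 IP libraries, a signal that the authors made by dividing counts by DESeq2 size factors; it served only to identify the kept libraries, since 100% of genes were proportional to the counts within 1e-06. Its fold changes and p-values, the authors' own comparison, were not used. Library labels follow the titles, because the description lines of the 6-3-A6 samples name the opposite fraction.

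Counts were tested with edgeR 4.0.16 in R 4.3.3 (quasi-likelihood F test after filterByExpr and TMM, with Benjamini-Hochberg adjusted p under 0.05 over all tested genes). IP over input and the interaction came from a model of 4 groups over 20 libraries, and the value over both groups from an additive model of treatment and fraction. Neither model paired the IP and input of a tumor, so the SEs and intervals of these comparisons include the spread between tumors. Treatment effects came from each fraction alone. Log2 CPM used a prior count of 2. Intervals are 95%. DESeq2 1.42.0, its size factors, library totals, no filter, each library left out, the tumor as a block and the kept tumors were the alternatives. The scripts were tested on simulated data. IP and input with the same number come from 1 tumor, and their deviations from the group means correlated at -0.07 to 0.71 over 10 tumors, with 8 of 10 IP libraries most like their own input.

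The members and lists were chosen with earlier results of these data known. Named genes were the 10 members, the tested genes with the highest and lowest IP over input of each list, 9 fixed genes (Pecam1, Cdh5, Csf1r, Col1a1, Notch3, Pdgfb, Pdgfra, Acta1 and Ckm) and the 2 genes outside the lists most like each member. Smtn, Flna, Tpm1, Anpep, Pdgfa and Pdgfd fall outside this rule and were named after their values were seen. Replicates are separate tumors, and replicate libraries differed by more than sampling noise (lowest median chi-square per gene 0.920, where sampling gives 0.455). A count of 0 allows up to 3 counts, which covers counting error only.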

Additional observations from a re-analysis of the deposited data

Results flagged for a closer look

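Values far from the rest of their group were sought in the 10 members and 4 groups, 40 groups in all, with Dixon's test for 5 libraries on log2 CPM, and 2 stood apart, where chance gives about 1 in 20. The scale decides which: on CPM without the log, tried after the data were seen, neither of these passed, and 3 other values did, Myh11 in the IP of 6-3-A6 tumor 2 (13.1 CPM) and Tagln in the inputs of control IgG tumor 2 (1.61 CPM) and 6-3-A6 tumor 5 (1.92 CPM), each the highest of its group. Mcam in the IP of 6-3-A6 tumor 2 was at 114.5 CPM (1883 counts), the lowest of its group, with the next library at 471 CPM. That library also had the lowest mean over the endothelial list, 5.56 log2 CPM. Des in the IP of 6-3-A6 tumor 3 was at 0.932 CPM on 22 counts, the lowest of its group, with the next at 2.05 CPM, and the sum of 9 skeletal muscle markers in that library was also the lowest of the group (6.91 CPM).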

How the results depend on the processing

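Mcam, Kcnj8 and Abcc9 were called higher in IP in each of the 234 values that the alternatives gave for control IgG, 6-3-A6 and both groups. Their log2 fold changes were between 2.02 and 4.51. Leaving out 1 library gave 3 members called higher each time. The cause of the changes listed here was not tested.

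In the count of called genes, IP over input in control IgG tumors (1649) became 3249 with the replicate block and 607 with the tumors of the kept libraries only, where fewer samples entered, and 1088 (without control IgG IP 3) to 2385 with 1 library left out. Over both groups 5751 became 3381 with the kept tumors. The count of members called lower in control IgG (1, Des) became 0 with library totals only, with no filter and with the kept tumors, and 0 to 1 with 1 library left out. Over both groups it became 2 with the replicate block, which added Pdgfrb and changed no other call. For the 6 kept IP libraries 646 called genes became 1251 with DESeq2, 1459 with no filter and 9 to 653 with 1 library left out, and the 2 called members became 4, 5 and 0 to 3. Pdgfrb was called with DESeq2, with no filter and without control IgG IP 5 or 6-3-A6 IP 1, Myh11 with DESeq2, with no filter and without control IgG IP 4, and Abcc9 with no filter and without control IgG IP 2. The count was 9 without 6-3-A6 IP 3, 161 without 6-3-A6 IP 4, 188 without control IgG IP 4 and 345 without 6-3-A6 IP 1. For the 6 libraries, no paired analysis was possible because the kept libraries share fewer than 2 replicate numbers; elsewhere same-numbered control IgG and 6-3-A6 tumors are different mice, and the block left 0 calls.

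The values that changed sign were all uncalled. With 1 library left out, IP over input ran in control IgG from -0.45 to 0.25 for Tagln, -0.66 to 0.10 for Acta2 and -0.24 to 0.29 for Cspg4, in 6-3-A6 from -0.020 to 1.08 for Tagln and -0.45 to 0.89 for Myh11, and over both groups from -0.10 to 0.44 for Tagln and -0.11 to 0.045 for Rgs5. Likewise 6-3-A6 over control IgG ran in the 6 IP libraries from -0.073 to 1.05 for Mcam, in the 10 IP libraries from -0.39 to 0.19 for Tagln, -0.67 to 0.0077 for Mcam, -0.37 to 0.24 for Abcc9 and -1.21 to 0.52 for Myh11, and in input from -0.19 to 0.25 for Myh11 and -0.21 to 0.054 for Rgs5. With library totals only, Tagln in control IgG became 0.067, Rgs5 in 6-3-A6 0.022 and Rgs5 over both groups 0.13. With no filter Tagln in control IgG became 0.0062 and Rgs5 over both groups 0.013. Myh11 became -0.65 in 6-3-A6 with the kept tumors, and 6-3-A6 over control IgG in input became 0.0045 with DESeq2 size factors and 0.016 with the replicate block.

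Counts of Tagln, Cspg4, Des and Myh11 were as low as 1, 11, 17 and 15 in a library, and the part of depth in their spread was not tested.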

Other observations

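Flna and Myh11 were highest in the same pair of IP libraries, a pattern noticed after the values were seen. Flna was at 3212 CPM in the IP of 6-3-A6 tumor 2, where the other 4 libraries of that group were between 203 and 362 CPM, and at 731 CPM in the IP of control IgG tumor 5, where the others were between 187 and 281 CPM. Myh11 was at 13.1 and 10.3 CPM in these libraries. Acta2 was at 25.1 and 19.7 CPM there, inside the range of its groups. Mylk was at 17.2 CPM in the former, inside its range, and at 20.4 CPM in the latter, the highest of its group. In the inputs of the same tumors Flna was at 348 and 232 CPM.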
